A study of Danio rerio with 15 samples.

Results

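The 8 libraries of actl6a-/- zebrafish pronephric ducts fell into 2 classes by how many transcripts they detected, and the genes that separate these classes are described here. A library was placed in the high-detection class where 25000 or more RefSeq accessions had at least 1 count, which held for mutant replicates 4, 5, 6 and 8, and otherwise in the low-detection class, mutant replicates 1, 2, 3 and 7. The series holds 15 libraries, of which 8 are labelled mutant and 7 sibling. Every gene with a count contributed to the number that chose the classes, so no test of one class against the other is given, and all differences between them are descriptions of these 8 libraries.

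The pronephros is the larval kidney of fish. Its paired epithelial tubes run along the trunk, carry solute transporters in proximal and distal segments, and hold multiciliated cells whose beating cilia move fluid. Blood vessels, circulating blood, gut, liver, muscle and skin lie close to the tubes, and a podocyte-bearing glomerulus joins them in front. actl6a encodes an actin-related protein within the SWI/SNF complexes that remodel chromatin, and the study asked about its part in cilia stability and in the development of this organ.

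All libraries were made at 72 h post fertilization from embryos of carrier incrosses of a CRISPR/Cas9 actl6a line, in a background where the Na,K-ATPase alpha1A4 promoter drives GFP in pronephric epithelia. The mutant group was actl6a-/-, and the sibling group carried the genotype label WT, although heterozygotes are not mentioned either way. Per the labels' protocols, 15 embryos per group were digested with collagenase, and about 10 fluorescent fragments were picked by eye, so the purity of a library depends on that choice. The labels do not say whether libraries of a group came from separate digestions, and p-values therefore measure the spread between these libraries, which may be technical. All mutant libraries were sequenced under one index and all sibling libraries under another, and genotype and index cannot be told apart.

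The 8 mutant libraries shared one table and were told apart by sample barcodes of 8 bases, shown here because both classes were read from the same index. The file headers number the barcodes, with 50, 52, 53 and 55 for mutant 4, 5, 6 and 8, and 49, 95, 96 and 54 for mutant 1, 2, 3 and 7. Any 2 barcodes of these 8 differed at 4 to 6 bases.
mutant 4: GCCACATA
mutant 5: GCTAACGA
mutant 6: GCTCGGTA
mutant 8: GGTGCGAA
mutant 1: GATAGACA
mutant 2: GATGAATC
mutant 3: GCCAAGAC
mutant 7: GGAGAACA

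In the high-detection class, 27413, 26066, 25684 and 27204 accessions had a count in mutants 4, 5, 6 and 8. In the low-detection class the numbers were 18188, 21322, 21803 and 21970 in mutants 1, 2, 3 and 7, and siblings had 18841 to 23992. The lowest library inside the threshold was mutant 6 and the highest outside it was mutant 7, and the gap between them was 3714 accessions. The high-detection libraries also had larger totals, 2623014 to 4013852 counts, against 1583052 to 2274156 in the low-detection class and 1698007 to 3084051 in siblings. All libraries were therefore thinned at random to 1583052 counts, the total of mutant 1, before the classes were compared. The fits of mutants against siblings given further on used the counts before thinning. The classes still did not overlap after thinning. Mutants 4, 5, 6 and 8 then had 24643, 23934, 24075 and 25017 accessions, and mutants 1, 2, 3 and 7 had 18188, 21174, 20979 and 21281. The gap between the classes, from mutant 7 to mutant 5, was then 2653 accessions. Mutant 1 lay farther than that below mutant 3, the next lowest of its own class. Siblings then had 18367 to 22097, with sibling 1 the highest.

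**Figure D1:**
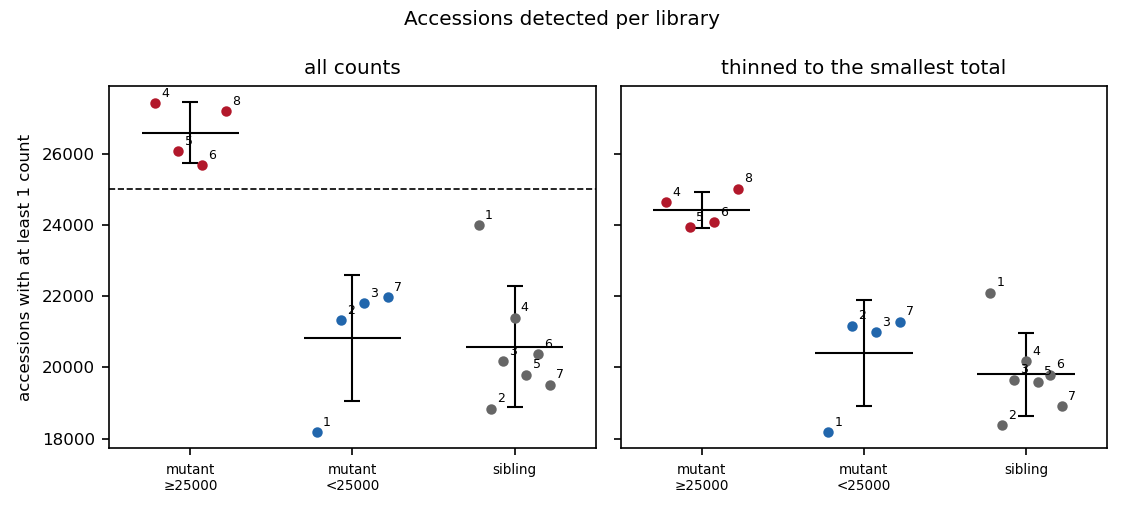
Accessions with at least 1 count in each library (points, numbered by replicate), with the mean (line) and SD (bar) of each group, over all counts on the left and after thinning to 1583052 counts on the right; the y axis does not start at 0. The dashed line marks the threshold of 25000, and the 4 mutant libraries above it stay above all others after thinning.

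The gap in detected accessions was wider for predicted than for curated transcripts. After thinning, accessions with the prefix XM, RefSeq's model transcripts, numbered 11145 to 11828 in the high-detection class and 7616 to 9503 in the low-detection class. Curated NM transcripts numbered 9988 to 10268 in the high-detection class and 8695 to 9447 in the low-detection class. Such detections chose the classes, so a gap was built in. The prefixes were not compared at matched levels of expression. In all, 397 accessions had a count in every high-detection library and in no low-detection library, and 11 showed the reverse. The class rule counts detected accessions and so favours an excess in the first direction. The median level of those 397 in the high-detection class was 1.90 CPM, counts scaled to a common total after thinning, the level of 3 counts, and 67 of them had no count in any sibling. The mitochondrially encoded proteins held 1.24% to 1.57% of counts in the high-detection class, 2.05% to 2.68% in the low-detection class and 1.58% to 2.53% in siblings.

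The highest count of any accession was much the same in every library, 5743 to 6131 in the high-detection class, 5558 to 5939 in the low-detection class and 5599 to 6432 in siblings. More accessions lay near that limit in the high-detection class, where 69 to 122 exceeded 3000 counts, against 12 to 28 in the low-detection class. Whether this limit moved the shares of abundant transcripts was not tested directly. For some, but not all, of the lists whose ratio between the classes moved without accessions above 1000 counts, that second ratio is given. Leaving these accessions out also changes which members a list holds. The floor of 3 counts used here covers counting error only.

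The extent of the difference was measured over 14171 accessions with a mean of at least 5 CPM over the 8 mutants. The difference is the mean log2(CPM + 2) of the high-detection class minus that of the low-detection class, which understates the change of weakly expressed genes. An accession was called where the ranges of the 4 and the 4 libraries did not overlap and the difference was at least 1 in size. On this rule 2448 accessions (17.3% of those tested) were higher and 640 (4.52%) were lower in the high-detection class, so that 79.3% of the calls were higher. The class rule chose libraries by detected accessions and so favours an excess of higher calls. An accession could also pass the filter through its level in 1 class alone. With a mean of at least 20 CPM, 72.6% of the calls were higher. The median difference was 1.93 over the calls in the first direction and -1.33 over those in the second. A difference of at least 2 in size was reached by 1117 higher and 42 lower accessions. The median over all tested accessions was 0.33, and with TMM factors, which bring it to 0.13, 65.3% of the calls were higher.

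**Figure D2:**
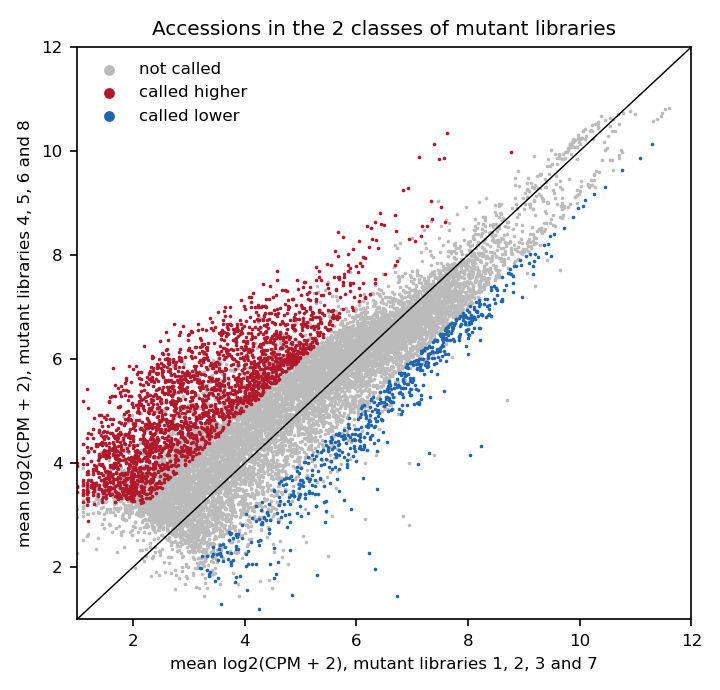
Mean log2(CPM + 2) of each tested accession in the low-detection class (x axis, mutants 1, 2, 3 and 7) and the high-detection class (y axis, mutants 4, 5, 6 and 8), with the line of equality. The 2448 accessions called higher lie mostly at low levels in the low-detection class, and the 640 called lower run along the other side at all but the lowest levels.

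Across the tested accessions, the low-detection libraries had higher correlations with siblings than with the other mutants. The mean Pearson correlation of log2(CPM + 2) was 0.861 among pairs of high-detection libraries, 0.888 among pairs of low-detection libraries and 0.753 for pairs across the classes. With siblings it was 0.683 for the high-detection and 0.850 for the low-detection class, and pairs of siblings had 0.887. Sibling 1 correlated with the high-detection libraries at 0.733 on average, and siblings 2 to 7 at 0.674. These are correlations across genes, which are not independent, and they carry no test. Of the 2448 higher accessions, 1459 (59.6%) exceeded every sibling in all 4 high-detection libraries, and 1961 (80.1%) did so when sibling 1 was left out. For 1623 of them the sibling median lay within the range of the low-detection class. Of the 640 lower accessions, 435 (67.97%) were below every sibling in all 4 high-detection libraries. These positions were counted among called accessions only, and their share over all tested accessions was not computed. The calling rule already sets the high-detection libraries apart, so these counts do not measure how near a class is to the siblings.

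Genes of blood and blood vessels were higher in the high-detection class. Of 15 tested erythrocyte accessions 9 were called higher and none lower, with a median difference of 2.45. This and the list counts that follow stand beside 17.3% called higher and 4.52% called lower over all tested accessions. hbae3, an embryonic alpha globin, had 575.5, 1358, 763.7 and 1360 CPM in mutants 4, 5, 6 and 8 and 184.4, 118.1, 128.9 and 128.9 CPM in mutants 1, 2, 3 and 7. Siblings had a lowest, median and highest value of 27.8, 32.8 and 723 CPM, the highest in sibling 1. All 4 high-detection libraries were thus above all 4 low-detection libraries, and these were above 6 of the 7 siblings. epb41b, a red cell membrane skeleton protein, was high in mutants 4, 5 and 8 with 15.8, 54.96 and 49.9 CPM and reached 2.53 CPM in mutant 6, against 1.89, 1.89, 0 and 0 CPM in mutants 1, 2, 3 and 7. Globin paralogs are near-identical, and how reads were split between them is uncertain.

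Endothelial genes showed the same order. Of 23 tested accessions 16 were called higher and none lower, with a median difference of 2.21. clec14a, an endothelial surface lectin, had 73.9, 109, 86.5 and 97.9 CPM in mutants 4, 5, 6 and 8 and 3.79, 3.16, 11.4 and 9.48 CPM in mutants 1, 2, 3 and 7. Sibling 1 had 79.6 CPM and the other siblings had at most 1.89 CPM. stab1, a scavenger receptor of endothelial cells, ran from 41.1 to 108 CPM in the high-detection class and from 1.26 to 10.7 CPM in the low-detection class. As summed shares, the endothelium list held 2054 ± 733 CPM in the high-detection class, 519 ± 161 CPM in the low-detection class (SD, n = 4 each) and 448 ± 650 CPM in siblings (SD, n = 7). The erythrocyte list held 4546 ± 1852, 645 ± 85.5 and 657 ± 1080 CPM in these groups. Both sibling means rest on sibling 1, with 1920 CPM of the endothelium and 3079 CPM of the erythrocyte list. Siblings 2 to 7 had 159 to 249 CPM and 108 to 527 CPM of these lists, below all 4 low-detection mutants, which had 308 to 658 CPM and 536 to 745 CPM. In bulk libraries, fewer cells of a type and less RNA per cell cannot be told apart.

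Mesenchymal, cartilage and notochord genes were also higher. Of 17 fibroblast and mesenchyme accessions 10 were called higher and none lower, and of 11 cartilage and notochord accessions 6 were higher and none lower. pdgfra, a growth factor receptor of mesenchymal cells, had 77.1, 72.6, 80.2 and 67.6 CPM in mutants 4, 5, 6 and 8 and 3.16, 6.32, 21.5 and 5.69 CPM in mutants 1, 2, 3 and 7. dcn, the extracellular proteoglycan decorin, had 58.1 to 95.4 CPM in the high-detection class and 0 to 23.4 CPM in the low-detection class, with 108 CPM in sibling 1. The mesenchyme share nevertheless overlapped, because mutant 7 had 2369 CPM, within the high-detection range of 1639 to 2644 CPM, while mutants 1, 2 and 3 had 220, 443 and 926 CPM. Without accessions above 1000 counts the log2 ratio of class means for this list was 1.89, against 1.12 with them. col2a1a, the cartilage and notochord collagen, had 23.4 to 51.8 CPM in the high-detection class and 0.632 to 10.1 CPM in the low-detection class.

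Several genes of liver and gut were higher in the high-detection class. Of 13 liver accessions 7 were called higher and 1 lower, and of 18 intestine accessions 8 were higher and 1 lower. tfa, the liver iron carrier transferrin, had 28.4, 58.1, 69.5 and 56.2 CPM in mutants 4, 5, 6 and 8 and 0, 1.89, 6.32 and 10.7 CPM in mutants 1, 2, 3 and 7. mttp, which loads lipid onto lipoproteins, had 109, 53.1, 18.95 and 66.3 CPM in mutants 4, 5, 6 and 8 and 0.632 to 13.9 CPM in the low-detection class. cyp8b1.1, a sterol 12-alpha-hydroxylase of bile salt synthesis, had 145, 82.8, 10.1 and 63.8 CPM in the high-detection class and 1.26 to 3.16 CPM in the low-detection class. For both genes mutant 6 was the lowest of its class. Siblings had at most 1.26 CPM of mttp and 0.632 CPM of cyp8b1.1. gc, the vitamin D binding protein on the liver list, went the other way, with 0.632 to 12.6 CPM in the high-detection class and 18.3 to 70.12 CPM in the low-detection class. The summed liver share was 947 ± 218 CPM in the high-detection class and 367 ± 117 CPM in the low-detection class (SD, n = 4 each), and the log2 ratio of these means, 1.37, was 0.84 without accessions above 1000 counts. The intestine share overlapped between the classes, with 4793, 2298, 1817 and 2330 CPM in mutants 4, 5, 6 and 8 and 1728 to 2071 CPM in the low-detection class.

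Some genes of the glomerulus and of leukocytes were higher as well, while the summed shares of both lists overlapped between the classes. Of 8 glomerulus and interrenal accessions 5 were called higher and none lower. wt1a, a podocyte transcription factor, had the largest difference among higher genes named by rule, 4.19, with 55.6, 70.12, 42.3 and 53.7 CPM in mutants 4, 5, 6 and 8 and 0.632, 0, 1.89 and 2.53 CPM in mutants 1, 2, 3 and 7. Siblings 1 and 4 had 49.3 and 32.2 CPM and the other siblings at most 3.16 CPM. podxl, the podocyte surface protein podocalyxin, had 200 to 297 CPM in the high-detection class, 21.5 to 75.2 CPM in the low-detection class, 180 and 178 CPM in siblings 1 and 4, and at most 8.84 CPM in the other siblings. Of 17 leukocyte accessions 6 were called higher and none lower. lyz, the lysozyme of myeloid cells, had 51.8 to 147 CPM in the high-detection class, 6.32 to 24.0 CPM in the low-detection class and at most 3.16 CPM in siblings. The glomerulus and interrenal share was 805 to 1406 CPM in the high-detection class and 1002 CPM in mutant 3 of the other class, and its log2 ratio of class means, 1.01, was 1.61 without accessions above 1000 counts. The leukocyte share was 843 to 2072 CPM in the high-detection class and 1307 CPM in mutant 7 of the other class.

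The summed shares of the muscle, skin and neuron lists overlapped between the classes. Of 18 skeletal muscle accessions 1 was called, higher, and the summed share was 5235, 961, 1884 and 6294 CPM in mutants 4, 5, 6 and 8 and 706, 1310, 4669 and 2663 CPM in mutants 1, 2, 3 and 7. Siblings ran from 1045 to 21134 CPM, and the classes overlapped. The 1 called accession was acta1a, a skeletal actin, with 189.5 to 289 CPM in the high-detection class and 37.3 to 158 CPM in the low-detection class, and actins share reads with paralogs. Of 18 epidermis and periderm accessions 1 was called, krt92, a keratin, with 1140, 927, 689 and 1044 CPM in mutants 4, 5, 6 and 8, 150, 143, 234 and 243 CPM in mutants 1, 2, 3 and 7, and 8.21 to 113 CPM in siblings. The summed skin share was highest in mutant 6, with 14474 CPM, then in mutant 7 of the other class with 8000 CPM. Of 9 neuron accessions 1 was higher, of 13 neural progenitor and glia accessions 3, and of 6 pancreas accessions 1, and the shares of the last 2 lists overlapped too. These counts are not far from the 17.3% called higher over all tested accessions, and those for muscle and skin are below it. Of 7 lateral line and hair cell accessions 2 were higher and 1 lower. The heart, eye and pigment cell shares did not overlap, although few of their accessions were tested. Of 3 heart accessions 2 were called higher, of 4 eye accessions 1, and of 10 pigment cell accessions 3 with 1 lower. Their shares were 4.77, 3.04 and 1.94 times as high in the high-detection class as in the low-detection class. The lower pigment cell accession and 1 of the higher ones belong to the same gene, pnp4a. They averaged 21.5 and 42.3 CPM in the high-detection class and 53.7 and 7.58 CPM in the low-detection class.

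**Figure D3:**
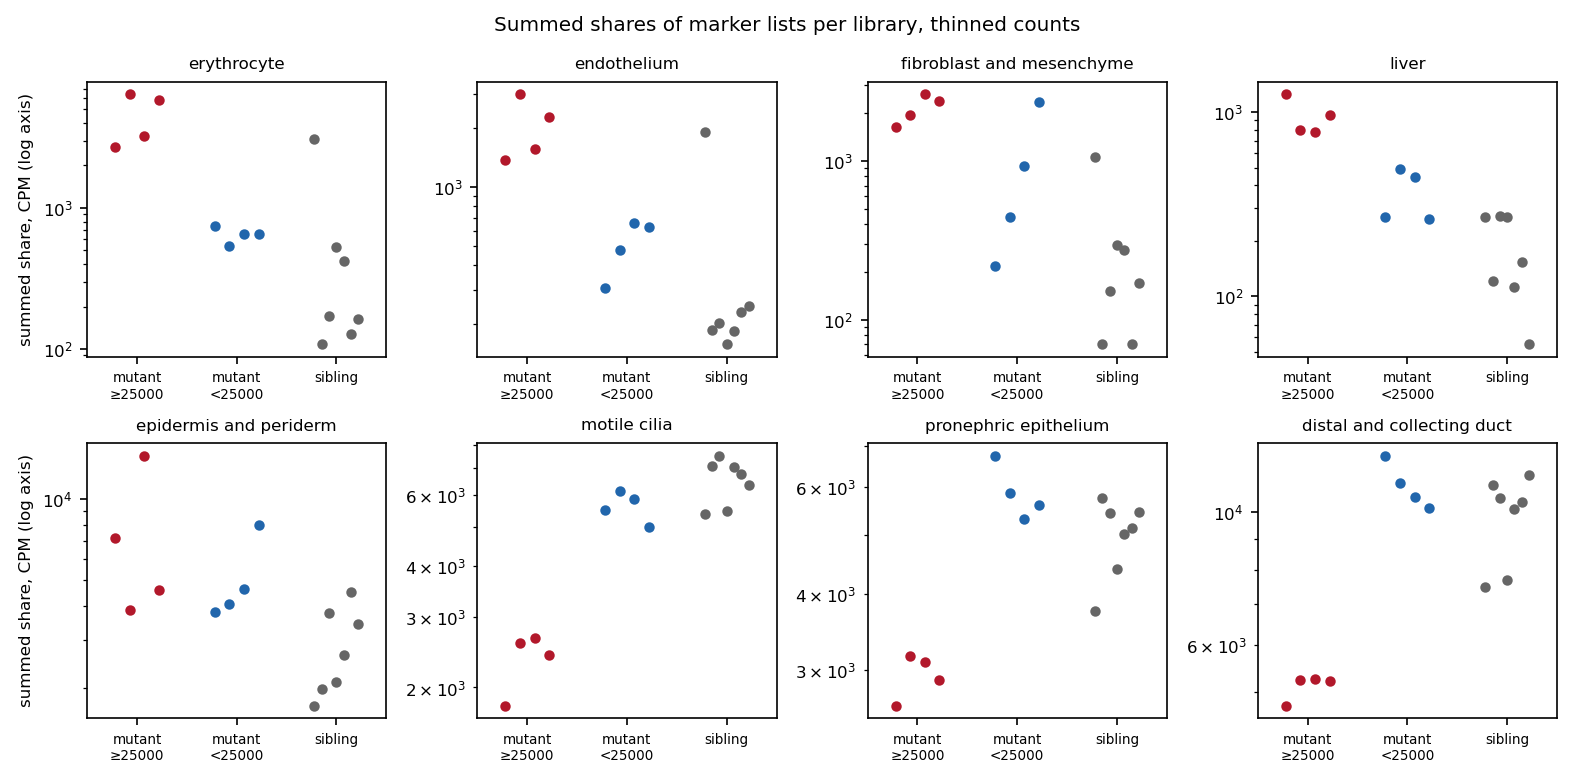
Summed share of 8 marker lists in each library, in CPM of the thinned total on log axes, with high-detection mutants (red) left of low-detection mutants (blue) and siblings (grey). The erythrocyte, endothelium and liver shares of all 4 high-detection mutants exceed those of all 4 low-detection mutants, and the duct and motile cilia shares lie below them. The mesenchyme shares of the classes overlap through mutant 7, and the epidermis shares overlap as well.

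Summed over all 18 lists of other tissues, with each accession counted once, the share was 2.51% to 3.49% of counts in the high-detection class, 1.29% to 2.21% in the low-detection class and 0.972% to 3.08% in siblings. The sum of the 5 duct lists had the opposite order, with 1.16% to 1.34%, 2.18% to 2.63% and 2.18% to 2.76% in the same groups. Of 368 accessions on the lists of other tissues, 294 to 312 had a count in high-detection libraries, 222 to 267 in low-detection libraries and 195 to 277 in siblings. Over all accessions these numbers were 23934 to 25017, 18188 to 21281 and 18367 to 22097. The class rule counts such detections, and whether these lists gained more than accessions in general was not tested. The part these other tissues play in the remaining differences was not tested.

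Of the 31 lists, motile cilia had the largest share of members called lower. Of 68 tested accessions 49 were called lower and none higher in the high-detection class, with a median difference of -1.25 against 0.33 over all accessions. foxj1a, the transcription factor that drives motile cilia genes, had 101, 152, 181 and 171 CPM in mutants 4, 5, 6 and 8 and 423, 401, 286 and 359 CPM in mutants 1, 2, 3 and 7, and siblings had 255 to 426 CPM. The high-detection libraries lay below all siblings, and the low-detection libraries lay within the sibling range. dnaaf4, a cytoplasmic assembly factor of ciliary dynein arms, had 14.5 to 23.4 CPM in the high-detection class, 53.7 to 69.5 CPM in the low-detection class and 74.5 to 124 CPM in siblings. For this gene both classes lay below every sibling. cfap221, a ciliary central apparatus protein, had 6.95 to 12.002 CPM, 28.4 to 41.7 CPM and 39.2 to 62.5 CPM in these groups, and there the low-detection class overlapped the siblings. Genes of intraflagellar transport and the BBSome, which carry cargo along cilia, were less uniform, with 5 of 26 lower and 2 higher and a median difference of -0.51.

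Many genes of the pronephric epithelium and distal lists were lower as well. Of 15 pronephric epithelium accessions 7 were called lower and 2 higher, and of 20 distal and collecting duct accessions 12 were lower and 3 higher. cdh17, a cadherin of the pronephric tubule, had 399, 414, 433 and 447 CPM in mutants 4, 5, 6 and 8 and 1112, 887, 861 and 898 CPM in mutants 1, 2, 3 and 7, with 720 to 1040 CPM in siblings. The classes did not overlap, and the high-detection class lay below every sibling. atp1a1a.4, the sodium pump subunit whose promoter drives the GFP, had 774, 917, 644 and 878 CPM in the high-detection class, 2198, 1564, 1490 and 1730 CPM in the low-detection class and 1112 to 1977 CPM in siblings. Other distal genes, named after their values were seen, had the same order. slc12a3, the thiazide-sensitive sodium chloride cotransporter, had 195 to 261 CPM in the high-detection class, 451 to 697 CPM in the low-detection class and 315 to 638 CPM in siblings. bsnd, a subunit of kidney chloride channels, had 175 to 222 CPM, 526.2 to 694 CPM and 349 to 700 CPM in these groups.

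Some duct list members moved against their list. The 3 distal genes with the largest differences were called higher, among them irx3a, a homeobox gene of nephron segments, with 22.1 to 67.6 CPM in the high-detection class and 0.632 to 5.05 CPM in the low-detection class. slc12a2, a sodium-potassium-chloride cotransporter made in many secretory tissues, had 75.8 to 94.1 CPM and 4.42 to 36.0 CPM. osr1, a transcription factor of kidney and neighbouring mesoderm, had 101, 143, 98.5 and 113 CPM in mutants 4, 5, 6 and 8 and 5.69, 19.6, 35.4 and 25.3 CPM in mutants 1, 2, 3 and 7. Siblings 2 to 7 had at most 8.21 CPM of it and sibling 1 had 50.5 CPM. Of 33 proximal tubule accessions 8 were called higher and 1 lower, not far from the 17.3% and 4.52% over all accessions, and the summed share of this list overlapped between the classes. Among the higher, aqp8a.1, a water channel, had 14.5 to 96.6 CPM in the high-detection class, 1.26 to 3.16 CPM in the low-detection class, 179 CPM in sibling 1 and at most 3.16 CPM in the other siblings. The 1 lower accession was that of hnf1ba, a tubule transcription factor, which was close to 0 in mutants 4 and 8 and in siblings 1 and 6 alike.

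As shares, the distal and collecting duct list held 5111 ± 247 CPM in the high-detection class, 11079 ± 983 CPM in the low-detection class (SD, n = 4 each) and 9832 ± 1601 CPM in siblings (SD, n = 7). The pronephric epithelium list held 2934 ± 241, 5882 ± 628 and 4992 ± 697 CPM, and motile cilia 2364 ± 389, 5650 ± 499 and 6530 ± 826 CPM. The log2 ratio of class means was -1.12 for the distal list, and it was -0.40 without the 8 of its 38 accessions that exceeded 1000 counts. It was -1.26 for motile cilia, a list with no accession above that count. The summed share of the ionocyte list, skin cells that also pump ions, was lower too, with 1223 ± 171 CPM in the high-detection class and 2312 ± 512 CPM in the low-detection class. Of its 9 tested accessions 1 was called lower and none higher. The lateral line and hair cell list changed direction with the abundant accessions, at -0.80 with them and 0.92 without them.

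The balance between duct lists was examined as ratios, which the share of other tissue in a library leaves unmoved when both lists come from the same cells. The ratio of the motile cilia share to the pronephric epithelium share was 0.688, 0.819, 0.862 and 0.838 in mutants 4, 5, 6 and 8, 0.815, 1.05, 1.11 and 0.896 in mutants 1, 2, 3 and 7, and 1.17 to 1.43 in siblings. The 2 classes overlapped, and all 8 mutants lay below every sibling. By the labelled groups the ratio averaged 0.885 ± 0.136 in mutants (SD, n = 8) and 1.31 ± 0.101 in siblings (SD, n = 7), a log2 difference of -0.58. An exact two-sided permutation test of the labels gave p = 0.00031, and 0.00093 when adjusted over 3 ratios. The log2 difference from siblings was -0.71 with high-detection mutants alone and -0.45 with low-detection mutants alone.

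Neither of the other ratios separated the labelled groups. The ratio of intraflagellar transport to pronephric epithelium averaged 0.337 ± 0.0596 in mutants (SD, n = 8) and 0.370 ± 0.0345 in siblings (SD, n = 7), and an exact permutation test gave an adjusted p = 0.309. Here the classes lay apart, at 0.348 to 0.406 in the high-detection class and 0.241 to 0.330 in the low-detection class. All low-detection mutants were below the sibling range of 0.338 to 0.443, and all high-detection mutants were within it. The ratio of proximal to distal shares averaged 0.313 ± 0.125 in mutants and 0.361 ± 0.192 in siblings, with an exact permutation adjusted p = 0.741 (n = 8 and 7). It was 0.420 ± 0.0367 in the high-detection class and 0.207 ± 0.0693 in the low-detection class (SD, n = 4 each), and both lay within the sibling range of 0.121 to 0.634.

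**Figure D4:**
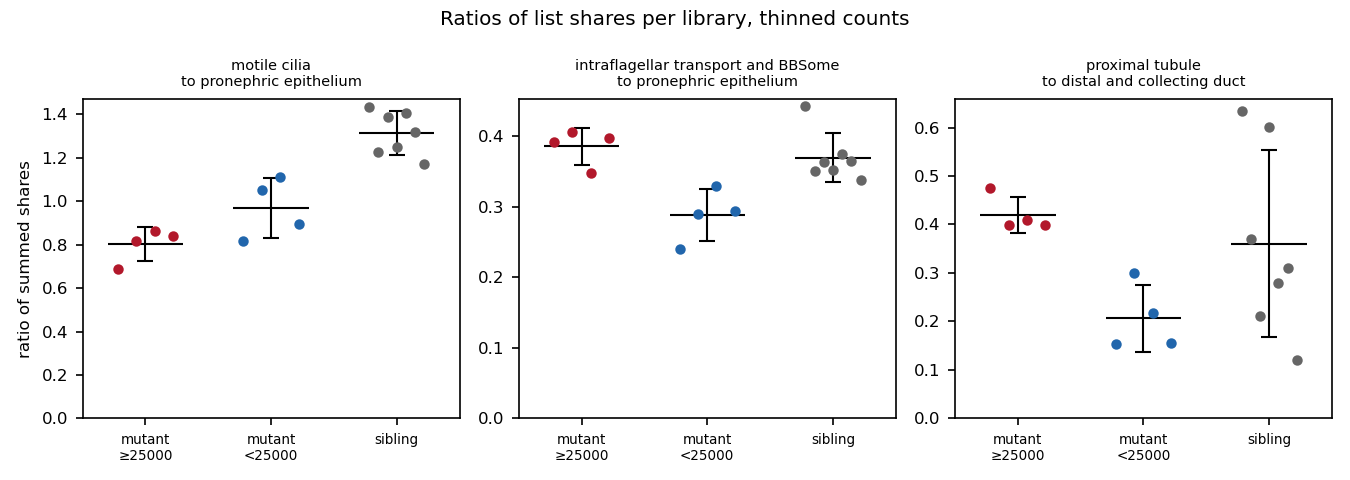
Ratio of summed list shares in each library (points), with the mean (line) and SD (bar) of the high-detection mutants, low-detection mutants and siblings; the y axes start at 0. In the first panel all 8 mutants lie below all 7 siblings, from 0.688 to 1.11 against 1.17 to 1.43, while in the other panels the mutant classes lie apart.

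Whether list shares go with detection outside the mutants was asked in the 7 siblings, which the class rule did not use. Over 23 lists, Pearson r between thinned accessions detected and log2 share was largest in size for pronephric epithelium, at -0.95, with Spearman rho of -0.89. Exact permutation gave p = 0.00139 for r, 0.0251 when adjusted over the lists, and 0.0123 for rho, 0.141 when adjusted. Without siblings 1 and 2, the libraries farthest from the median, r was -0.78. The distal list had r of -0.85 and rho of -0.86 (exact permutation p = 0.00218 and 0.0238, adjusted 0.0251 and 0.183), with r of -0.85 without those libraries. The ionocyte list had r of -0.79 and rho of -0.96 (exact permutation p = 0.00496 and 0.00278, adjusted 0.038 and 0.0639), with r of -0.84 without them. The erythrocyte list had r of 0.91 and rho of 0.75 (exact permutation p = 0.00833 and 0.0663, adjusted 0.0479 and 0.305), and r was 0.49 without them, so that this relation rests on those libraries. No list passed an adjusted p of 0.05 by rho, and 4 passed by r. For motile cilia r was -0.69 and rho -0.64 (exact permutation p = 0.0704 and 0.139, adjusted 0.18 and 0.355). Leaving out sibling 1, 2, 3, 4 or 7 alone left no list past the threshold.

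Of the lists of cell state, that of oxidative phosphorylation was lower in the high-detection class. Of 70 oxidative phosphorylation accessions 8 were called lower and 1 higher, with a median difference of -0.86. Their summed share was 27879 ± 1698 CPM in the high-detection class, 50346 ± 6081 CPM in the low-detection class (SD, n = 4 each) and 48010 ± 6826 CPM in siblings (SD, n = 7). ndufs1, a core subunit of complex I, had 114 to 160 CPM, 245 to 378 CPM and 236 to 344 CPM in these groups. Of 65 cytosolic ribosomal protein accessions 1 was called, and the log2 ratio of class means was 0.21. Without the 63 accessions of the list that exceeded 1000 counts it was 0.94. That second ratio rests on the 14 accessions left of 77, which held only a very small part of the summed share of the list. It therefore does not describe the list as a whole. None of the 33 cell cycle, 21 p53 target or 33 immediate early and heat shock accessions was called in either direction. By comparison, 17.3% of all tested accessions were called higher and 4.52% lower. The p53 share still lay apart, at 3209 ± 138 CPM in the high-detection class and 4083 ± 258 CPM in the low-detection class, with a log2 ratio of -0.35. Siblings had 3443 ± 291 CPM (SD, n = 7). All 4 low-detection mutants were above every sibling in this share, and no high-detection mutant was.

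Posterior hox and caudal genes, which pattern the trunk and tail, were graded across the classes. Of 25 tested accessions 12 were called higher and 2 lower. hoxa11b had 79.6, 95.4, 86.5 and 107 CPM in mutants 4, 5, 6 and 8, 0, 10.7, 15.8 and 18.95 CPM in mutants 1, 2, 3 and 7, and at most 5.05 CPM in siblings. It was high in all high-detection libraries, present at lower levels in 3 low-detection libraries and without a count in mutant 1. cdx4, a caudal-type homeobox gene, had 63.8, 61.9, 65.7 and 65.1 CPM in the high-detection class, 0, 27.16, 22.7 and 15.8 CPM in the low-detection class and 1.26 to 13.3 CPM in siblings. The summed share was 2216 ± 478 CPM in the high-detection class, 1413 ± 198 CPM in the low-detection class (SD, n = 4 each) and 762 ± 170 CPM in siblings (SD, n = 7). All 8 mutants exceeded every sibling in this share. hoxc13b, among the lower accessions and named after its values were seen, had 22.7 to 77.7 CPM in the high-detection class, 101 to 203 CPM in the low-detection class and 63.8 to 153 CPM in siblings.

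Interferon and antigen presentation genes had the same order of groups. Of 17 accessions 6 were called higher and none lower, and the summed share was 2165 ± 152, 1363 ± 245 and 824 ± 203 CPM in high-detection mutants, low-detection mutants and siblings, with every mutant above every sibling. psmb12, an immunoproteasome-type subunit, had 80.9, 83.4, 63.2 and 79.6 CPM in mutants 4, 5, 6 and 8, 13.3, 6.95, 16.4 and 8.84 CPM in mutants 1, 2, 3 and 7, and at most 3.16 CPM in siblings. Of 17 leukocyte accessions 6 were called higher, with overlapping shares, and their part in this difference was not tested. Of 21 SWI/SNF subunit accessions 5 were called higher, not far from 17.3% over all accessions, and none lower. The summed share of the list overlapped, with a log2 ratio of -0.07. dpf3, a subunit that reads histone marks, had 43.0 to 60.0 CPM in the high-detection class, 2.53 to 22.7 CPM in the low-detection class and 12.002 to 36.0 CPM in siblings. smarca4a, the ATPase of the complex, was not called, with 97.9 to 112 CPM in the high-detection class, 75.2 to 107 CPM in the low-detection class and 87.2 to 131 CPM in siblings.

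The targeted gene was low in both classes. actl6a (NM_173240.1) had 40.4, 41.7, 9.48 and 38.5 CPM in mutants 4, 5, 6 and 8, 24.6, 14.5, 17.7 and 14.5 CPM in mutants 1, 2, 3 and 7, and 55.6, 89.1 and 91.6 CPM as the lowest, median and highest sibling. The classes overlapped through mutant 6, which had the lowest level of all, and no mutant reached the sibling range. Against siblings the log2 fold change was -1.70 (SE 0.24, edgeR adjusted p = 0.000245) with all 8 mutants, -1.49 (SE 0.27) with the high-detection class alone and -2.19 (SE 0.21) with the low-detection class alone. Its paralog actl6b had at most 1 thinned count in any library.

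How many genes differ between mutants and siblings depended on which class was in the fit. With all 8 mutants, edgeR's quasi-likelihood test with Benjamini-Hochberg adjustment called 2476 of 12914 accessions (19.2%) at an adjusted p of 0.05, with 1761 (13.6%) higher and 715 (5.54%) lower in mutant libraries. This number was 1977 on thinned counts, 1631 without edgeR's bias adjustment, 3960 without the filter on low counts and 4277 with DESeq2. With the replicate number as a block in edgeR it was 1357. With the low-detection class alone the edgeR test called 511 of 12887 (3.97%), 378 higher (2.93%) and 133 lower (1.03%). With the high-detection class alone it called 7056 of 15134 (46.6%), 4043 higher (26.7%) and 3013 lower (19.9%). Both single-class fits used counts before thinning, with larger totals in the high-detection class, and were not repeated on thinned counts. These fits share the same 7 siblings, and the classes were chosen by a readout of the same libraries, so the counts for a single class are given as alternatives to the first. Without sibling 1 the counts were 590 for the low-detection and 7503 for the high-detection class. Leaving out 1 mutant at a time gave 1621 calls without mutant 8, 1674 without mutant 4, 1694 without mutant 5 and 1664 without mutant 6. In the low-detection class it gave 3390 without mutant 1, 2703 without mutant 2, 2328 without mutant 3 and 2209 without mutant 7.

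Of the 1761 accessions called higher in the fit of all 8 mutants, 1139 (64.7%) had all 4 high-detection libraries above every sibling while the low-detection libraries were not all above them. Both classes exceeded every sibling for 145 (8.23%) and the low-detection class alone for 41. Of the 715 called lower, both classes were below every sibling for 126 (17.6%) and the high-detection class alone for 277 (38.7%). A class difference under 0.5 in size was found for 385 of those called higher and 390 of those called lower. All of these were counted among called accessions only. The same shares over all tested accessions were not computed, so whether called accessions differ from the rest in this was not tested.

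Some genes separated mutants from siblings at much the same level in both classes. evx1, a homeobox gene of posterior embryonic tissue, had 72.0, 87.2, 71.4 and 82.1 CPM in mutants 4, 5, 6 and 8, 41.1, 66.3, 128 and 60.6 CPM in mutants 1, 2, 3 and 7, and 0.632 to 22.7 CPM in siblings. Its fold change was 3.44 on the log2 scale (SE 0.44, edgeR adjusted p = 9.78e-05). cfb, complement factor B, had 47.4, 68.9, 54.96 and 62.5 CPM in the high-detection class, 67.0, 70.7, 48.0 and 51.8 CPM in the low-detection class and at most 9.48 CPM in siblings, and was 4.25 higher on the log2 scale (SE 0.35, edgeR adjusted p = 6.71e-07). noxo1b, an organizer of the NADPH oxidase, had 48.6 to 91.0 CPM, 18.3 to 143 CPM and 0.632 to 10.7 CPM in these groups. scinla, a gelsolin family member, and unc5cb, a netrin receptor, were the other rule-named genes with a known role in this direction. Both were above every sibling in all 8 mutants.

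Among genes lower in mutants at like levels in both classes, slc25a27, a mitochondrial carrier, had 20.8, 21.5, 12.002 and 17.7 CPM in mutants 4, 5, 6 and 8, 14.5, 11.4, 12.6 and 16.4 CPM in mutants 1, 2, 3 and 7, and 32.8 to 77.1 CPM in siblings. Its log2 fold change was -1.76 (SE 0.20, edgeR adjusted p = 2.97e-05). cox8b, a cytochrome c oxidase subunit, had 95.4 to 184 CPM in the high-detection class, 104 to 165 CPM in the low-detection class and 209 to 394 CPM in siblings, and it fell by 1.08 on the log2 scale (SE 0.16, edgeR adjusted p = 0.00037). aldh4a1, a proline breakdown enzyme, iqch and snapin, a SNARE-binding protein, lay below every sibling in all 8 mutants as well.

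Other genes were higher in all 8 mutants but at different levels in the classes. s100a10a, an S100 family calcium-binding protein, had 1217, 782, 772 and 963 CPM in mutants 4, 5, 6 and 8, 140, 140, 207 and 239 CPM in mutants 1, 2, 3 and 7, and 0 to 5.69 CPM in siblings. Every low-detection library was thus far above the siblings and below every high-detection library. The log2 fold change was 8.02 (SE 0.64, edgeR adjusted p = 2.12e-07) over all mutants, 8.70 with the high-detection class alone and 6.47 with the low-detection class alone. cxcl18a.1, a chemokine, had 101 to 157 CPM, 51.2 to 89.7 CPM and 1.26 to 12.002 CPM in these groups, and its class difference of 0.86 was under the size that was called.

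**Figure D5:**
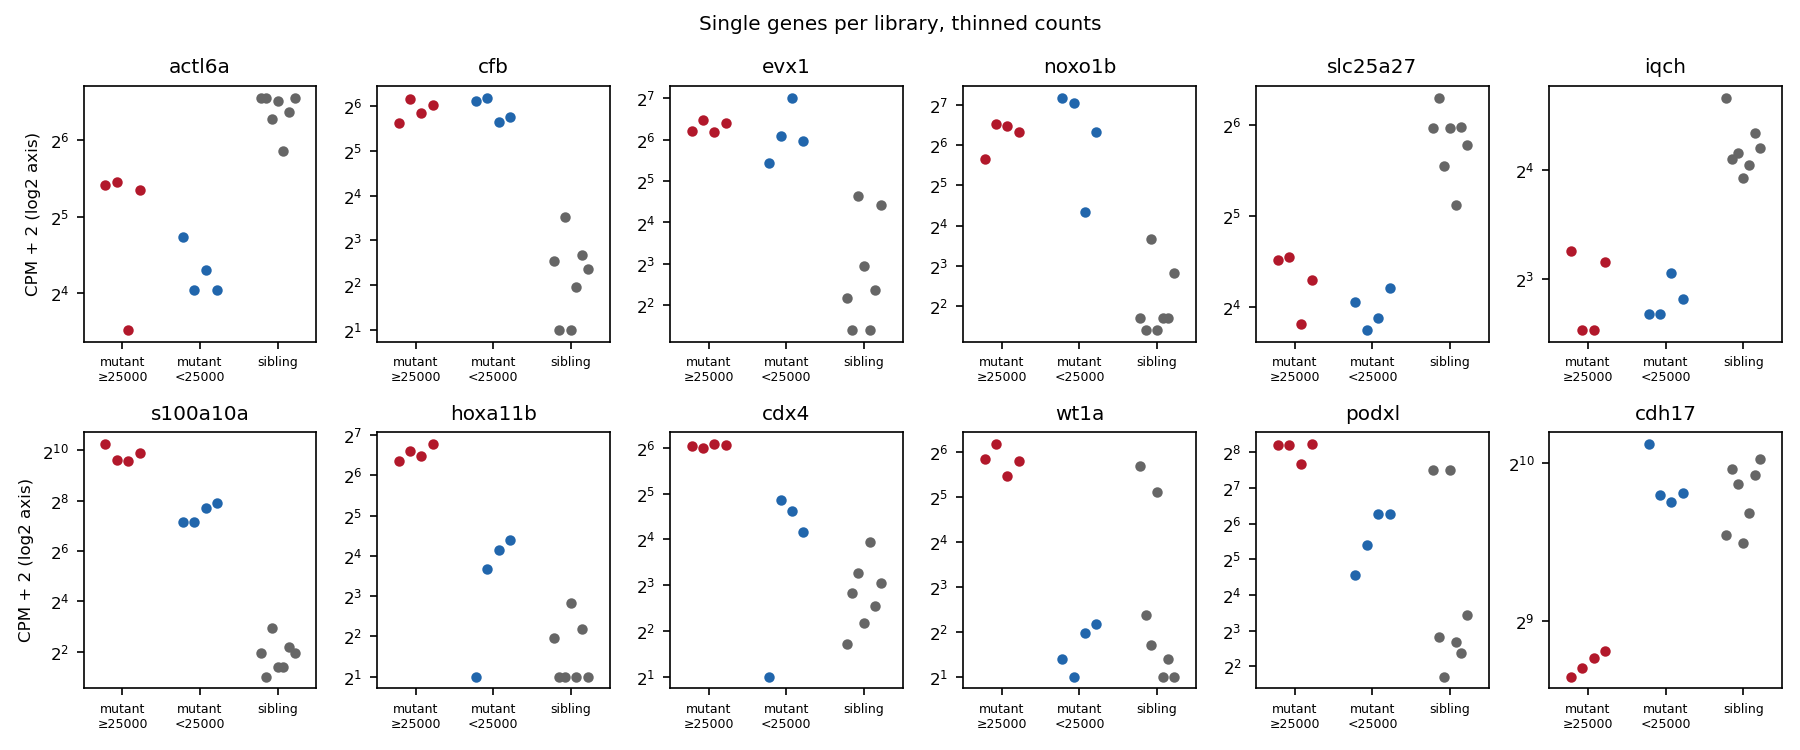
Level of 12 genes in each library, as CPM + 2 on log2 axes, with high-detection mutants (red) left of low-detection mutants (blue) and siblings (grey). The upper row holds actl6a and genes at like levels in both mutant classes, and the lower row holds genes that differ between them, of which s100a10a is above the siblings in all 8 mutants and cdh17 is below them in the high-detection class alone.

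The remaining accessions with the largest differences mixed tissues. Among higher ones, agrp, a neuropeptide of appetite control, had 72.0 to 91.6 CPM in the high-detection class, 2.53 to 7.58 CPM in the low-detection class and at most 1.26 CPM in siblings. mir145, the precursor locus of a smooth muscle microRNA, had 32.2 to 75.8 CPM, 0 to 6.32 CPM and at most 3.16 CPM in these groups. sult3st5, a sulfotransferase, had 35.4 to 70.8 CPM and 0 to 5.05 CPM in the classes and no count in any sibling. ccl25b, a chemokine, had 57.5 to 102 CPM in the high-detection class and 1.89 to 7.58 CPM in the low-detection class, but 131 CPM in sibling 1. The others named by the rule in this direction were tuba8l3, tmem204, serpine3, serpina1l, ifitm1 and c8g, with differences of 3.72 to 3.93. Among lower ones, prlrb, a prolactin receptor, had 3.79 to 15.8 CPM in the high-detection class, 43.0 to 66.3 CPM in the low-detection class and 31.0 to 64.4 CPM in siblings. The rule also named pmp22a, paqr3b, fbxo16, zc2hc1a and rbp7a in this direction, with differences of -4.38 to -2.57.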

How the data were processed

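RNA sequencing libraries of 8 mutant and 7 sibling duct samples were used. The authors deposited 2 tables, 1 per index, with unnormalized counts for each RefSeq accession, per the file headers. The submitters' processing notes name cutadapt, FastQC, STAR, featureCounts, edgeR and the build GRCz11, without versions or order; whether counts are reads or molecules is not given in the sources used here. An accession listed in only 1 table was set to 0 in the other. Of 33298 accessions, 20452 (61.4%) matched a symbol in a RefSeq gene table of GRCz12tu, used for names alone, and they held 87.6% of counts; 896 of 1093 list symbols matched, and pax2a did not. The lists overlap, and 115 called accessions had the same counts as another in every library.

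Counts were thinned without replacement to the smallest total (seed 11). Library totals were 1583052 to 4013852, so that 1 count was worth 0.249 to 0.632 CPM, and the floor of 3 counts is 1.90 CPM after thinning. Replicate pairs differed beyond sampling noise, with chi-square per degree of freedom of 8.39 to 39.3 over 49 pairs. The labelled groups were tested in R 4.3.3 with edgeR 4.0.16 (TMM, filterByExpr, robust glmQLFit with bias adjustment, glmQLFTest), with DESeq2 1.42.0 as an alternative. Except in 1 alternative, these fits used the counts before thinning. SEs are for log2 fold changes. Ratios and correlations used exact permutation in Python 3.11.15 with numpy 2.4.6, pandas 2.3.3 and scipy 1.17.1. The count test and the class rule were tested on simulated data.

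The classes, lists and tests were chosen with earlier results of these data known. The text names genes from among 10 fixed ones, in each direction the 12 called accessions with the largest class difference and a mean of at least 20 CPM, up to 3 called accessions per list, and in each direction the 6 genes with the smallest p among those that differ between mutants and siblings at levels that overlap between the classes. The result for 1 gene that the rule names is not reported here.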

Additional observations from a re-analysis of the deposited data

Results flagged for a closer look

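Within groups of 4 to 10 libraries, a library was listed where its gap to the nearest other, over the whole range of its group, exceeded Dixon's 95% critical value. Of 94 groups looked at, 9 held such a library, and chance gives about 1 in 20 groups, or 4.7 here.

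In the high-detection class, mutant 6 stood apart in the epidermis and periderm share, with 14474 CPM, and mutant 4 in the intestine share, with 4793 CPM. In the low-detection class, mutant 2 stood apart in the lateral line and hair cell share, with 2853 CPM, and in the proximal tubule share, with 3362 CPM.

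Among siblings, replicate 1 stood apart 5 times. Its erythrocyte share was 3079 CPM, its endothelium share 1920 CPM, its cartilage and notochord share 242 CPM and its fibroblast and mesenchyme share 1061 CPM, each above the other siblings. Its ratio of intraflagellar transport to pronephric epithelium was 0.443.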

How the results depend on the processing

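Between the classes, TMM factors gave 1094 accessions lower, centring on the median difference, an alternative chosen after seeing the data, 1202, with 62.4% of calls higher. A mean of 20 CPM gave 1370 higher, and a difference of at least 2 gave 1117 higher and 42 lower. Leaving out 1 mutant gave 2377 to 3263 higher and 643 to 730 lower. Counting accessions with at least 10 counts narrowed the gap between the classes to 1672. Of 31 list shares, all 31 stayed within 1 SD without thinning and 10 moved without accessions above 1000 counts.

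Against siblings, leaving out 1 library gave 1621 to 3390 calls, thinned counts 1977, no filter 3960, DESeq2 4277, and edgeR without bias adjustment 1631. Without a class, the counts were 511 and 7056, and 590 and 7503 without sibling 1 as well; these last, and the fit without bias adjustment, were chosen after seeing the data. A replicate block gave 1357 calls. Same-numbered mutants and siblings had deviations correlated at -0.508 to 0.251. Being few and of both signs, these correlations cannot settle whether the numbers pair the libraries. The block changed the call of no ratio.

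The ratio of motile cilia to pronephric epithelium kept its direction and call under every alternative run, at -0.63 to -0.53 on leaving out 1 library. That of intraflagellar transport was -0.36 with the low-detection class alone, 0.064 with the high-detection class alone and -0.19 to -0.082 on leaving out 1 library. That of proximal to distal shares turned to 0.41 with the high-detection class alone, to 0.00045 without mutant 1, 0.039 without sibling 1 and 0.026 without sibling 4, and ran from -0.36 to 0.039. In siblings, 2 lists passed without thinning and 0 to 5 on leaving out 1 library, and r for endothelium ran from -0.33, without sibling 1, to 0.90, without sibling 4. The cause of these changes was not tested. A transcript below 3 thinned counts cannot be told from absent.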

Other observations

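Grouping tested accessions by the letters that open their symbols, gave counts by family, some of whose members are also on the lists. These families were chosen after their values were seen. Of 16 accessions whose symbols begin with pcdh, the protocadherin adhesion proteins, 12 were called higher and 1 lower in the high-detection class. Of 21 collagen accessions (col) 11 were higher and none lower, of 39 cytochrome P450 accessions (cyp) 17 and none, and of 18 semaphorin accessions (sema) 7 and none. Of 30 cilia- and flagella-associated accessions (cfap), many of them on the motile cilia list, 18 were lower and none higher. Claudins (cldn), proteins of tight junctions, went both ways, with 7 of 21 higher and 5 lower. Over all tested accessions 17.3% were called higher and 4.52% lower.

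Several accessions with the largest negative differences were close to absent in some libraries and abundant in others. ptena, a phosphatase of the PI3K pathway, had 3, 5, 1 and 2 counts on accession NM_200708.2 in mutants 4, 5, 6 and 8 and 167, 166, 209 and 235 in mutants 1, 2, 3 and 7, before thinning. Its other accession, XM_009293049.3, had 262, 273, 192 and 226 counts in the high-detection class and 30, 70, 81 and 112 in the low-detection class. Summed over both, the counts were 193 to 278 and 197 to 347 in the classes. Sibling 1 had the pattern of the high-detection class, with 5 and 244 counts. ckmt1, a mitochondrial creatine kinase, had 0, 144, 1.26 and 172 CPM in mutants 4, 5, 6 and 8 and at most 1.26 CPM in siblings 1, 2 and 7, but 227 to 323 CPM in the other siblings. hnrnpl, a splicing factor, had 114, 0.632, 135 and 0.632 CPM in mutants 4, 5, 6 and 8 and 0.632 CPM in siblings 2, 3 and 4. btbd6b was at or below 0.632 CPM in mutants 5, 6 and 8 and sibling 5 and at 49.3 to 92.9 CPM in all other libraries. Of 6597 accessions with a median of at least 30 CPM, 16 to 40 were below 5% of their median in a high-detection library, 11 to 29 in a low-detection library and 30 to 81 in a sibling library. Over all accessions such values thus occurred in both classes and in siblings.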
